A study of Mus musculus with 21 samples.

Results

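LSKCD201+ cells are blood progenitors that lack lineage markers and carry Sca-1, c-kit and CD201 on their surface, and the comparison described here set such cells taken from mice against mouse embryonic stem cells (mESC) in a gene table of 27968 genes. Expression was given as FPKM, a fragment count scaled to transcript length and to the library's mapped total. The FL-LSKCD201+ cells came from the fetal liver of midgestation C57BL/6 embryos and the BM-LSKCD201+ cells from the bone marrow of young adult C57BL/6 mice, with 3 libraries each. The mESC, also 3 libraries, had the 129/ola background by their labels, were grown on inactivated embryonic fibroblasts and were sorted with an antibody to SSEA-1. The study's methods name embryonic stem cells of 129/ola and of C57BL/6 origin without saying which were sequenced. How many embryos or mice were pooled for a library was not given in the sources used here. Strain as labelled, culture, sorting antibody and cell type all changed together between mESC and both in vivo groups, and their parts in any difference cannot be told apart. The other libraries of the study, of 21 in all, were the day 5 coculture groups, of which D5-LSKCD201+ and D5-LSKCD201- are read at the end. Genes were kept where the mean over the 9 libraries reached 0.5 FPKM, which left 14195. Of these, 12234 (86.2%) moved in the same direction in FL-LSKCD201+ and BM-LSKCD201+ against mESC, 6956 upward and 5278 downward, and 1961 did not. Both changes were taken against the same 3 mESC libraries and agreement was the rule by which genes were kept, so this share describes the selection and nothing is read from it.

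Hematopoietic stem and progenitor cells keep their identity through a set of transcription factors of the ETS, GATA, RUNX, bHLH and homeobox families, and respond to niche and cytokine signals through surface receptors such as c-kit. Embryonic stem cells are held in the pluripotent state by Pou5f1, Sox2 and Nanog with a wider circle of naive factors, and divide fast with a short G1 phase. Both cell types self-renew, so the comparison asks which genes set the blood form of self-renewing cell apart from the pluripotent one, in 2 separate tissues.

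The libraries of mESC were close to each other, with Pearson correlations of log2(FPKM + 1) across genes of 0.997 in every pair. Replicate 1 of FL-LSKCD201+ stood apart from the other 2 (0.978 and 0.980, against 0.998 between those 2), and so did replicate 1 of BM-LSKCD201+ (both 0.988, against 0.998). The tables gave no read counts, so sequencing depth is unknown. The study calls its replicates biological, but nothing in the labels says whether they were separate cultures or animals, and the p-values below measure the spread between these libraries. In bulk RNA, fewer cells of a type and less RNA per cell cannot be told apart.

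The label of each group was first read against its defining genes. Kit, Ly6a and Procr encode c-kit, Sca-1 and CD201, by which the cells were sorted, so their values only check the labels. Kit stood at 5.87, 7.60 and 6.89 FPKM in mESC, at 68.1, 40.0 and 45.5 in FL-LSKCD201+ and at 119, 120 and 117 in BM-LSKCD201+. Ly6a stood at 1.38, 1.48 and 1.93 FPKM in mESC, at 45.8, 36.8 and 39.1 in fetal liver cells and at 189, 216 and 218 in bone marrow cells. Procr stood at 2.67, 2.31 and 2.23 FPKM in mESC, at 66.6, 69.3 and 69.4 in fetal liver cells and at 117, 123 and 121 in bone marrow cells. All 3 genes had no overlap between mESC and either in vivo group, and bone marrow cells had the highest value of each. Ptprc, the pan-leukocyte CD45 gene, was at most 0.123 FPKM in mESC and at least 38.4 FPKM in every in vivo library.

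Limma with a mean per group called a gene at an adjusted p below 0.05 and at least a 2-fold difference, 1 on the log2(FPKM + 1) scale. In FL-LSKCD201+ against mESC, 3351 genes were higher (23.6% of those tested) and 2412 lower (17.0%). In BM-LSKCD201+ against mESC, 4293 genes were higher (30.2%) and 3032 lower (21.4%). Called in the same direction in both tissues were 2731 higher genes (19.2%) and 2085 lower genes (14.7%). At least 16-fold in both tissues, 226 genes were higher and 157 lower. A further 760 genes with agreeing direction were called only in fetal liver cells and 2300 only in bone marrow cells, and 22 were called in opposite directions. Quantile normalization, which forces all libraries onto one distribution, gave 2154 higher and 2502 lower genes, so the larger share of increases held on the deposited scale and not on that one.

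**Figure D1:**
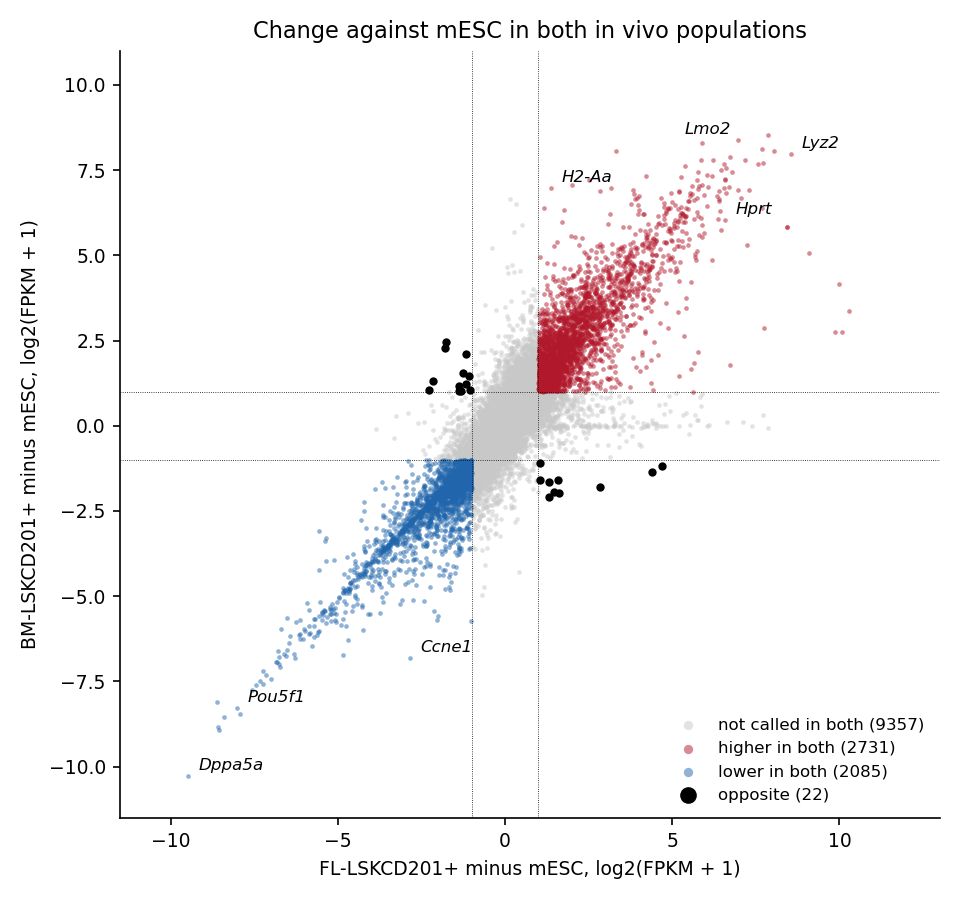
Change against mESC in FL-LSKCD201+ (horizontal) and BM-LSKCD201+ (vertical), each point 1 of 14195 genes, in log2(FPKM + 1), with dotted lines at a 2-fold difference. Red marks the 2731 genes higher in both, blue the 2085 lower in both and black the 22 called in opposite directions, and both axes share the mESC libraries.

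Of the 15 largest increases, 8 belonged to the list of leukocyte signaling and actin genes and 2 to that of blood transcription factors. Ranked by the smaller of the 2 changes, Gimap6 came first. This gene for a GTPase of the immunity-associated family had 0.678, 0.754 and 1.10 FPKM in mESC, 586, 433 and 431 FPKM in FL-LSKCD201+ and 495, 486 and 487 FPKM in BM-LSKCD201+. Its change was 8.03 ± 0.13 (SE) on the log2 scale in fetal liver cells and 8.06 ± 0.13 in bone marrow cells (limma adjusted p = 4.3e-11 and 2.6e-11). Lyz2, which encodes the antibacterial enzyme lysozyme M, had 0.408, 0.511 and 0.625 FPKM in mESC, 613, 539 and 553 FPKM in fetal liver cells and 360, 387 and 386 FPKM in bone marrow cells. It changed by 8.55 ± 0.08 and 7.97 ± 0.08. Srgn, which encodes the granule proteoglycan serglycin, rose from 1.42 ± 0.256 FPKM (SD, n = 3) to 562 ± 45.3 and 889 ± 32.7 FPKM. Prtn3, the neutrophil protease proteinase 3, had 0.353, 0.887 and 0.305 FPKM in mESC, 236, 364 and 356 in fetal liver cells and 251, 341 and 357 in bone marrow cells. In both tissues replicate 1 was the lowest of its group for this gene, and none came near mESC.

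Among transcription factors in this top group were Lmo2, a bridging subunit of the blood-forming SCL complex, and Nfe2, a factor of the megakaryocyte and erythroid lineages. Lmo2 had 2.31, 2.32 and 2.08 FPKM in mESC, 425, 398 and 397 in FL-LSKCD201+ and 1009, 1116 and 1113 in BM-LSKCD201+, so that every bone marrow library was above every fetal liver library. It changed by 6.98 ± 0.07 and 8.38 ± 0.07 (limma adjusted p = 1.4e-11 and 4.6e-12). Nfe2 changed by 6.78 and 7.44, from below 1 FPKM in each mESC library to 187 ± 18.7 and 296 ± 8.25 FPKM (SD, n = 3). The remaining 9 of the 15 largest increases were Ptprcap, Lsp1, Gimap1, Rac2, Samsn1, Adgrg1, Arhgdib, Lcp1 and Fermt3, which encode proteins of leukocyte signaling, adhesion and the actin cytoskeleton. Adgrg1 encodes GPR56, an adhesion receptor of blood stem cells, and Arhgdib an inhibitor of small GTPases that reached 954 FPKM or more in every in vivo library. One unnamed gene model in that range was passed over.

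**Figure D2:**
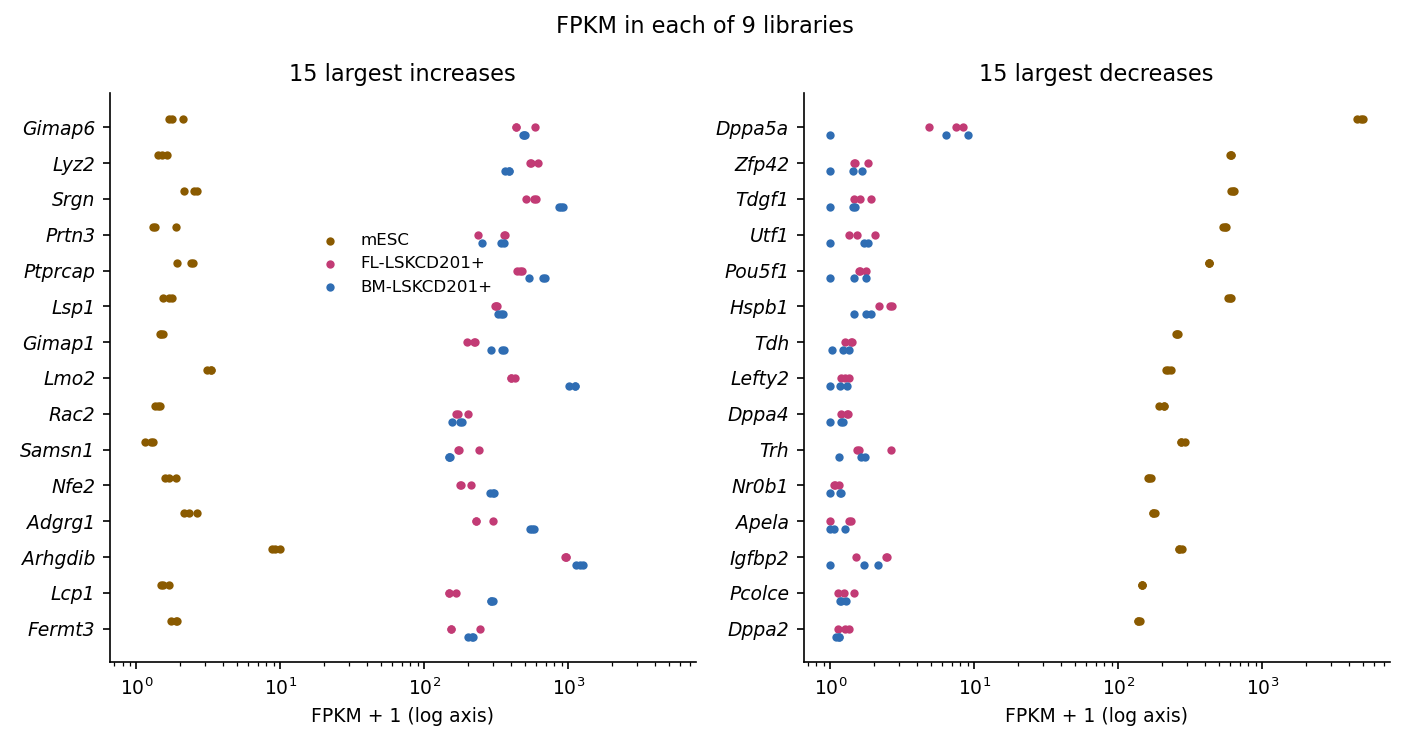
FPKM + 1 on a log axis in each of the 9 libraries for the 15 genes with the largest increases (left) and decreases (right) in both tissues, ranked by the smaller change. Each point is 1 library, and for all 30 genes the mESC libraries lie apart from the 6 in vivo libraries.

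The 15 largest decreases included genes of the pluripotent state, grouped here by their known roles and not by a fixed list. Dppa5a, a developmental pluripotency-associated RNA-binding protein, had 5022, 4848 and 4534 FPKM in mESC, 7.39, 3.82 and 6.42 FPKM in FL-LSKCD201+ and 0, 5.37 and 8.04 FPKM in BM-LSKCD201+. It fell by 9.49 ± 0.67 and 10.28 ± 0.67 on the log2 scale (limma adjusted p = 7.0e-07 and 2.8e-07), and bone marrow replicate 1 was listed at 0. Pou5f1, the central pluripotency factor Oct4, had 424, 429 and 426 FPKM in mESC, 0.766, 0.570 and 0.619 in fetal liver cells and 0, 0.456 and 0.766 in bone marrow cells. Its decrease was 8.02 ± 0.18 and 8.29 ± 0.18. Zfp42 (Rex1), a marker of naive pluripotency, had 611, 607 and 599 FPKM in mESC and at most 0.813 FPKM in any in vivo library. Tdgf1, the Nodal co-receptor Cripto, had 626, 634 and 604 FPKM in mESC and at most 0.928 FPKM elsewhere. Utf1, Lefty2, Dppa4, Nr0b1 and Dppa2 are also factors or signals of the pluripotent state and fell by 6.80 to 8.55.

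The other 6 of the 15 largest decreases have other known roles. Hspb1 encodes a small heat shock protein and fell by 7.91 and 8.45, from 594 ± 16.5 FPKM (SD, n = 3) to 1.48 ± 0.262 and 0.714 ± 0.234 FPKM. Tdh, threonine dehydrogenase, on which mouse embryonic stem cells depend, had 256, 261 and 250 FPKM in mESC and at most 0.423 FPKM in vivo. Trh encodes thyrotropin-releasing hormone, Apela the peptide ligand Elabela, Igfbp2 a binding protein of insulin-like growth factors and Pcolce an enhancer of collagen processing. These 4 fell by 6.85 to 7.56 in both tissues. One pseudogene of ferritin light chain was passed over, since its reads may be shared with its parent gene.

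Promoter sequence of 4 of these genes is given because ETS and RUNX factors and Lmo2 were among the genes that rose and the octamer-binding factor Pou5f1 among those that fell. The 4 were picked after their letters were seen. The windows are the 250 bases before the RefSeq transcription start in GRCm38.p6, written 5′ to 3′ along the gene, and capitals mark AGGAAGT (an ETS-family core), TGTGGTT (a RUNX-family core) or ATGCAAAT (the octamer), on either strand. A core of the factors related to Gata1, AGATAAG, was searched too and is in none of these windows. Lyz2 lies on the minus strand at chr10:117282273-117282522, Prtn3 on the plus strand at chr10:79879417-79879666, Samsn1 (an adaptor of immune cells) on the minus strand at chr16:75909267-75909516 and Zfp42 on the minus strand at chr8:43307010-43307259.
Lyz2: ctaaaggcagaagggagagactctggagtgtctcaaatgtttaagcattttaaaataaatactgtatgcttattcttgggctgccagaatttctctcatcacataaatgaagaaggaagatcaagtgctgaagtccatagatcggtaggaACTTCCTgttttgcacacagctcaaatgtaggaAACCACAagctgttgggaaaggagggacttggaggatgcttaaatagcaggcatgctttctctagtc
Prtn3: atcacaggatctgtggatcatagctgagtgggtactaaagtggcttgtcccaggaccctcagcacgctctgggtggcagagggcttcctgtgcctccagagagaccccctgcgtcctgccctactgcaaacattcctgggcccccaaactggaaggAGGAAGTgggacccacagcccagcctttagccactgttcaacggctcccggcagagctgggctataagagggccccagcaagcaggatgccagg
Samsn1: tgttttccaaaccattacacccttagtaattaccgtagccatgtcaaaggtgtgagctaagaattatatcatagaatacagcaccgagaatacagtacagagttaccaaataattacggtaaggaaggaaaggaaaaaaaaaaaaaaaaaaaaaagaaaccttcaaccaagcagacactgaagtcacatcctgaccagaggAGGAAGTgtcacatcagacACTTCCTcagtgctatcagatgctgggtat
Zfp42: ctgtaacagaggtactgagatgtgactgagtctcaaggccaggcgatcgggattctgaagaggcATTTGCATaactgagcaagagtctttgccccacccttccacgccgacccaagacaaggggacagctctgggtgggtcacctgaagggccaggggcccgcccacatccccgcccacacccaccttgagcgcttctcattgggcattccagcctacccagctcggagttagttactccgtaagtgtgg
The letters in Lyz2 began 100 bases (ETS) and 67 bases (RUNX) before the start, those in Prtn3 94 bases and those in Samsn1 49 and 30 bases before it, the 2 on opposite strands. The octamer of Zfp42 began 186 bases before the start. Other genes named by rule held the same letters in both directions of change. AGGAAGT was also in Trim28 and Sycp3, lower in both tissues, and in Bcl2a1b and Gimap5, higher in both. TGTGGTT was in Pcgf6, which was lower, and ATGCAAAT in Prrc2a, which was higher.

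Over all genes with exactly 1 promoter in the table (8116 of 14179 with a symbol of their own), AGGAAGT was held by 7.87%, against 9.63% of 1588 genes higher in both tissues and 6.19% of 1147 genes lower in both. TGTGGTT was held by 3.27% of all, 3.78% of the higher and 3.66% of the lower genes. AGATAAG was held by 1.84%, 2.33% and 2.44%, and ATGCAAAT by 1.33%, 1.51% and 2.01%. The median number of CG in the window was 16 for all, 14 for the higher and 15 for the lower genes. These shares are descriptions of letters in a fixed window, and none of the 4 motifs contains another.

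Pluripotency factors fell nearly as a whole. Of 36 core and naive pluripotency factors tested, 33 (91.7%) were lower in both tissues and none was higher, beside 14.7% and 19.2% of all genes tested. The median change was -4.64 in FL-LSKCD201+ and -4.74 in BM-LSKCD201+, where that of all genes was 0.15 and 0.24. The 3 not called in both were Klf4, Zfp281 and Lin28b. Klf4, a reprogramming factor with roles in blood cells (-1.70 and -0.58), and Zfp281, a zinc finger factor (-1.22 and -0.76), were called lower in fetal liver cells only. Lin28b, a fetal blocker of let-7 microRNAs (0.84 and -1.85), was called lower in bone marrow cells only. Lin28b had 3.42, 3.03 and 2.46 FPKM in mESC, 5.10, 6.79 and 6.38 in fetal liver cells and at most 0.113 in bone marrow cells. It thus sat above mESC in one tissue and below it in the other.

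Germline genes that embryonic stem cells also transcribe were lower for 14 of 16 tested (87.5%) with median changes of -2.29 and -2.38. Tex19.1, a germ cell protector against transposons, had 42.0, 41.2 and 42.3 FPKM in mESC and at most 0.325 FPKM in vivo. Rhox5, a reproductive homeobox gene, had 52.6 ± 3.70 FPKM (SD, n = 3) in mESC and changed by -5.07 and -5.70. Sycp3, of the synaptonemal complex, fell by 4.54 and 5.27, and Tdrd12, of the piRNA pathway, by 4.27 and 4.31. The 2 not called in both were Ddx4 (1.12 and 0.60), which was called higher in fetal liver cells, and Zcwpw1 (-0.56 and -0.30).

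Of 20 epithelial adhesion genes, 10 (50%) were lower in both and 1 was higher. Cdh1, E-cadherin, had 55.3, 58.1 and 60.7 FPKM in mESC, 0.218, 0.676 and 0.492 in fetal liver cells and 0, 0.103 and 0.126 in bone marrow cells, a decrease of 5.35 ± 0.13 and 5.78 ± 0.13. Epcam fell by 4.39 and 4.51, Spint1 (a protease inhibitor of epithelia) by 4.31 and 2.77 and the desmosome gene Pkp2 by 2.93 and 2.72. The exception was Krt18, a keratin, with 6.08, 4.54 and 5.11 FPKM in mESC, 31.7, 43.7 and 42.4 in fetal liver cells and 156, 166 and 159 in bone marrow cells. It rose by 2.68 and 4.70, and the 3 groups did not overlap.

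Blood transcription factors rose nearly as a whole in turn. Of 39 tested, 38 (97.4%) were higher in both tissues and none was lower, with median changes of 4.24 and 4.4. Beside Lmo2 and Nfe2 the largest were Spi1 and Lyl1. Spi1, the myeloid and B cell factor PU.1, had 0.866, 0.939 and 1.10 FPKM in mESC, 163, 169 and 166 in FL-LSKCD201+ and 210, 242 and 241 in BM-LSKCD201+ (6.41 ± 0.08 and 6.88 ± 0.08). Lyl1, a bHLH factor of stem cells, had at most 0.219 FPKM in mESC, 87.1, 73.8 and 75.2 in fetal liver cells and 105, 104 and 105 in bone marrow cells. The gene not called was Gata1, the erythroid master factor, which was called in fetal liver cells (46.3, 40.6 and 37.0 FPKM, a change of 5.10) and stood in bone marrow cells at 1.54, 1.32 and 1.33 FPKM, a change of 0.96, against 0.264, 0.234 and 0.184 in mESC. The erythroid RNA described below was highest in the same fetal liver libraries, and its part in the Gata1 value was not tested.

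Surface receptors of blood cells, with the 3 sorting genes among them, were higher for 33 of 37 tested (89.2%) and lower for 1. Cd34, a sialomucin of progenitors and vessels, had 1.63, 1.89 and 2.22 FPKM in mESC, 220, 178 and 176 in fetal liver cells and 472, 474 and 479 in bone marrow cells. Cd27, a TNF receptor of progenitors and lymphocytes, rose by 5.80 and 7.02, and the tetraspanin Cd53 by 5.77 and 6.95. For these 3 genes every bone marrow library was above every fetal liver library. The tetraspanin Cd9 went the other way, from 215, 211 and 216 FPKM in mESC to 56.3, 61.2 and 61.4 in fetal liver cells and 95.1, 88.6 and 91.9 in bone marrow cells (-1.83 and -1.21). Csf1r (3.41 and 0.86), Epor (3.14 and -0.92) and Tek (2.22 and 0.71) were not called in bone marrow cells.

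Of 38 genes of leukocyte signaling and the actin skeleton, 35 (92.1%) were higher in both and none lower, with median changes of 4.41 and 5.06. Rac2, a small GTPase of blood cells, had 0.342, 0.458 and 0.419 FPKM in mESC, 199, 169 and 164 in fetal liver cells and 155, 175 and 181 in bone marrow cells, and its 2 in vivo groups overlapped. Gimap1 rose by 7.17 and 7.79. Inpp5d (0.91 and 1.84), Myo1f (1.16 and 0.85) and Fyb (0.77 and 1.71) were not called in both.

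Genes that show cells to the immune system were higher too, and more so in bone marrow cells. Of 16 genes of MHC class I and antigen processing, 11 (68.8%) were higher in both and none lower, with median changes of 2.93 in fetal liver cells and 4.32 in bone marrow cells. B2m, the shared light chain of class I molecules, had 23.6, 21.9 and 23.4 FPKM in mESC, 1089, 766 and 816 in FL-LSKCD201+ and 2734, 2666 and 2934 in BM-LSKCD201+ (5.2 ± 0.13 and 6.86 ± 0.13). H2-T23, a nonclassical class I gene, rose by 5.90 and 8.29, Psmb8 and Psmb9 of the immunoproteasome by 5.59 and 7.03 and by 4.29 and 5.62. Psmb10 (0.91 and 1.65), Nlrc5 (0.53 and 2.07), H2-Q4 (0.88 and 3.22), Calr (-0.21 and -0.46) and Pdia3 (0.38 and -0.17) were not called in both. Class I genes are highly similar and differ between strains, so the split of reads among H2 genes is uncertain. Of 30 interferon response genes, 20 (66.7%) were higher in both. Gbp7, an interferon-induced GTPase, rose by 3.75 and 5.33, Trim30a by 3.56 and 3.91, the pro-apoptotic factor Xaf1 by 3.13 and 4.31 and Irf7, a master factor of type I interferon, by 3.12 and 4.65.

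Of 22 immediate early genes tested, which respond within minutes to growth or stress signals and to cell handling, 18 (81.8%) were higher in both and none lower. Dusp2, a nuclear phosphatase of MAP kinases, had 1.80, 1.51 and 1.51 FPKM in mESC, 249, 245 and 254 in fetal liver cells and 373, 410 and 401 in bone marrow cells. Jun, an AP-1 subunit, rose by 5.38 and 6.16, Ier5 by 4.29 and 5.37 and Ier3 by 3.95 and 5.08. Fosl1 (0.67 and 2.55), Egr2 (0.38 and 1.5), Ier2 (0.06 and 1.89) and Myc (0.37 and 1.24) were not called in fetal liver cells. The time between tissue and lysis was not given for any group, and its part in these values was not tested.

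**Figure D3:**
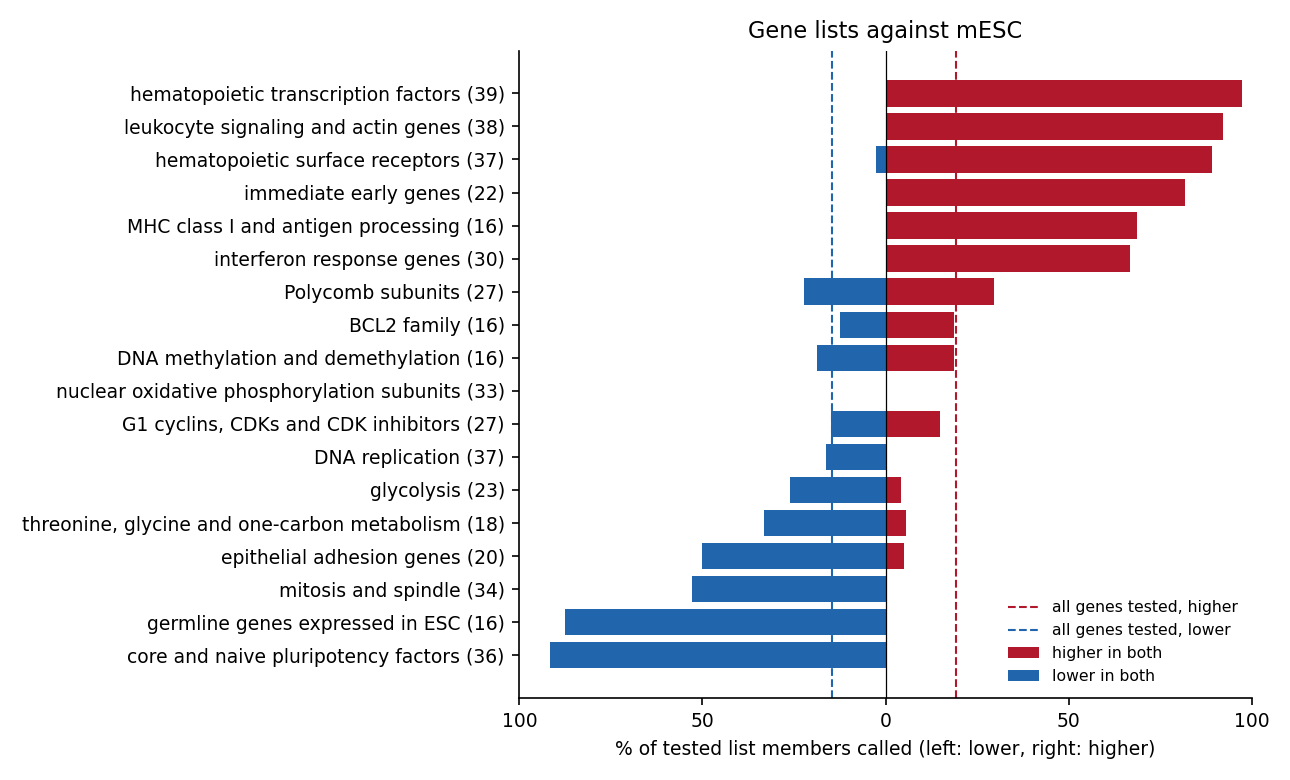
Share of the tested members of 18 gene lists called higher (red, right) or lower (blue, left) in both tissues against mESC, with the number tested in parentheses. Dashed lines mark the shares of all genes tested, 19.2% higher and 14.7% lower.

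Of 34 genes of mitosis and the spindle, 18 (52.9%) were lower in both and none higher, with median changes of -1.11 in FL-LSKCD201+ and -3.29 in BM-LSKCD201+. Ccnb1, the mitotic cyclin B1, had 355, 357 and 357 FPKM in mESC, 106, 69.7 and 70.1 in fetal liver cells and 7.56, 7.14 and 7.14 in bone marrow cells. Anln, the cytokinesis protein anillin, fell by 2.92 and 4.57, Ect2, which places the cleavage furrow, by 2.70 and 4.21 and Kif2c, a kinesin of chromosome alignment, by 2.42 and 5.13. Of the 34, 32 were lower in bone marrow cells, beside 21.4% of all genes, and 18 in fetal liver cells, beside 17.0%. The exceptions in bone marrow cells were Kif23, a kinesin of the midbody (-0.60 and -0.65), and Mki67, the Ki-67 gene (1.64 and -0.51), which was called higher in fetal liver cells.

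DNA replication genes showed 6 of 37 (16.2%) lower in both, close to the 14.7% of all genes, with medians of -0.49 and -1.63. In bone marrow cells alone 28 of the 37 were lower, beside 21.4% of all genes, and in fetal liver cells 6, beside 17.0%. The largest were Orc1, of the origin recognition complex (-2.34 and -3.51), Mcm10 (-2.32 and -3.99), Rrm2, which makes deoxynucleotides (-1.79 and -4.80), and the clamp loader subunit Rfc5 (-1.47 and -2.20). Rrm2 had 406, 397 and 423 FPKM in mESC, 115, 119 and 118 in fetal liver cells and 14.1, 13.4 and 13.6 in bone marrow cells.

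Of 27 regulators of G1, 4 were higher and 4 lower in both tissues (each 14.8%), no larger a share than the background of 19.2% upward and close to that of 14.7% downward, so the values below describe single genes. Ccne1, cyclin E1, which drives entry into S phase, had 338, 324 and 340 FPKM in mESC, 54.6, 40.0 and 43.8 in fetal liver cells and 2.0, 2.27 and 1.65 in bone marrow cells (-2.84 ± 0.12 and -6.82 ± 0.12). Cdkn2b (p15, an inhibitor of CDK4 and CDK6), Ccng1 (a p53 target) and Mycl fell by 2.87 and 2.87, by 2.08 and 1.59 and by 2.52 and 2.29. Higher were Ccng2, a cyclin of arrested cells (2.70 and 3.44), Cdkn2d, the CDK inhibitor p19 (2.29 and 2.70), Ccnd2, cyclin D2 (1.80 and 2.82), and Rbl2, the retinoblastoma-like p130 of quiescent cells (1.10 and 2.87). The call of Rbl2 was lost with quantile normalization (0.78) and without FL-LSKCD201+ replicate 1 (0.98). Ccnd2 had 27.7, 27.8 and 26.0 FPKM in mESC, 87.1, 102 and 102 in fetal liver cells and 187, 204 and 202 in bone marrow cells.

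The size of the change differed between the tissues in 2556 genes (18.0% of all tested) at an adjusted p below 0.05 and at least 2-fold, by the limma contrast of FL-LSKCD201+ and BM-LSKCD201+. Of the 34 mitosis genes, 33 were higher in fetal liver cells than in bone marrow cells by that contrast, as were 17 of the 37 replication genes. So were 14 of 16 erythroid, 12 of 15 hepatocyte and 10 of 11 granulocyte markers, whose part in these differences was not tested. In the other direction, 22 of 30 interferon response genes, 12 of 16 class I genes and 15 of 22 immediate early genes were higher in bone marrow cells. Of 39 blood transcription factors 2 were higher in fetal liver cells and 6 in bone marrow cells. Among genes higher in both tissues against mESC, 623 were higher in bone marrow cells and 86 in fetal liver cells. Among those lower in both, 198 were lower still in bone marrow cells and 37 in fetal liver cells.

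**Figure D4:**
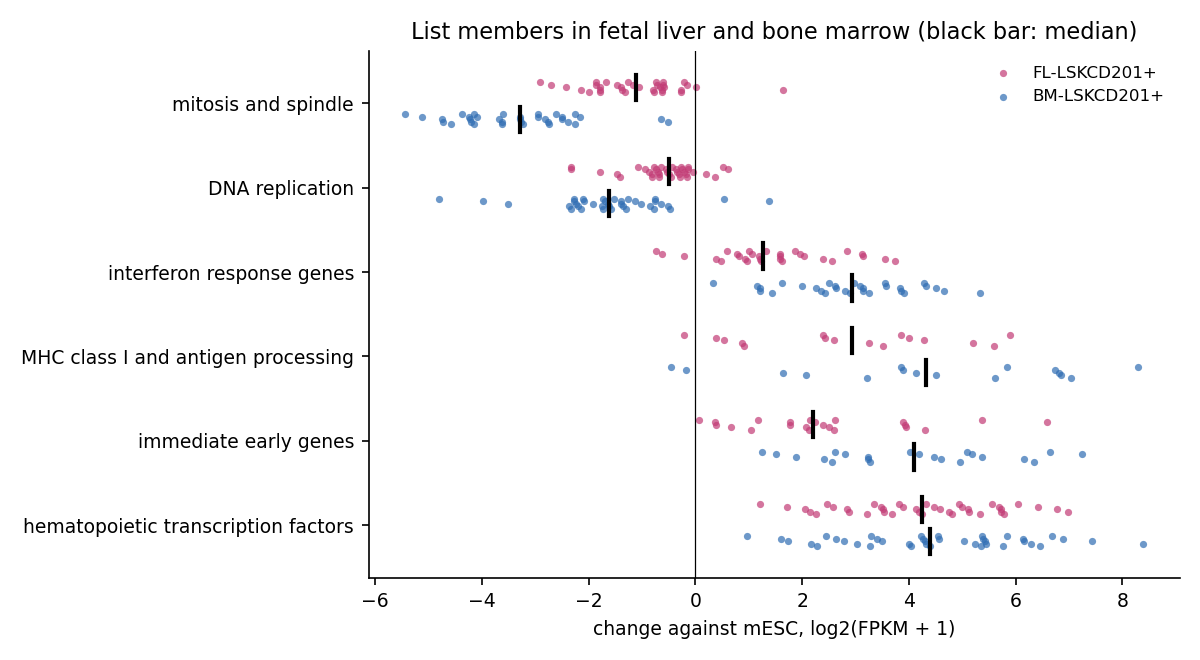
Change against mESC in log2(FPKM + 1) of each tested member of 6 gene lists, in FL-LSKCD201+ and in BM-LSKCD201+, with a black bar at the median. Mitosis genes have medians of -1.11 and -3.29, and blood transcription factors 4.24 and 4.4.

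Of 27 Polycomb subunits, 8 (29.6%) were higher and 6 (22.2%) lower in both tissues, beside 19.2% and 14.7% of all genes. Among subunits of the PRC1 complex, which ubiquitinates histone H2A, Phc1 had 178, 179 and 170 FPKM in mESC and 11.2 to 14.7 in vivo, while its relative Phc2 had 1.78, 1.33 and 1.23 FPKM in mESC and 12.3 to 22.5 in vivo. Of the interchangeable PCGF subunits, Pcgf2 fell by 3.00 and 3.45 and Pcgf6 by 1.67 and 2.0, and Bmi1, needed for blood stem cell self-renewal, rose by 2.20 and 3.04 and Pcgf5 by 1.90 and 2.60. Bmi1 had 0.962, 0.969 and 0.978 FPKM in mESC, 6.54, 8.64 and 9.14 in fetal liver cells and 16.7, 14.4 and 14.5 in bone marrow cells. Jarid2, an accessory subunit of the H3K27 methyltransferase complex PRC2, fell from 174, 180 and 173 FPKM to between 12.3 and 15.9.

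Of 16 genes of DNA methylation and demethylation, 3 were higher and 3 lower (each 18.8%), near the background of 19.2% and 14.7%, and the values are those of single genes. With quantile normalization 5 were lower. Dnmt3l, the inactive partner of the de novo methyltransferases, had 86.4, 85.5 and 82.7 FPKM in mESC and at most 0.748 in vivo. Zfp57, which guards imprints, fell by 6.52 and 5.65 and its corepressor Trim28 by 1.85 and 2.34. Tet3, an enzyme of demethylation, rose by 2.48 and 1.99 and the methyl-CpG binders Mbd2 and Mbd1 by 2.87 and 2.54 and by 1.65 and 1.60. The other 10, among them the methyltransferases Dnmt1, Dnmt3a and Dnmt3b, were not called in the same direction in both.

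Genes of threonine and glycine use, of which Tdh was given above, were among the metabolic genes that fell. Of 18 genes of threonine, glycine and one-carbon metabolism, 6 (33.3%) were lower in both and 1 (5.56%) higher, beside 14.7% and 19.2% of all genes. Gldc, glycine decarboxylase, had 48.9, 46.0 and 45.2 FPKM in mESC and at most 0.303 in vivo. Amt, of the same glycine cleavage system, fell by 1.82 and 3.22 and the folate enzyme Shmt1 by 1.82 and 2.71. Phgdh, the first step of serine synthesis, rose from 92.6 ± 1.02 FPKM (SD, n = 3) to 319 ± 37.2 in fetal liver cells and 219 ± 7.84 in bone marrow cells. Of 23 glycolysis genes 6 (26.1%) were lower and 1 (4.35%) higher, beside the same background. The glucose transporters Slc2a3 (-3.58 and -2.67) and Slc2a1 (-2.21 and -2.92), the mutase Pgam1 (-1.56 and -2.74) and pyruvate kinase Pkm (-1.44 and -1.3) fell. Hk1, hexokinase 1, rose by 2.26 and 2.62. None of 33 nuclear subunits of oxidative phosphorylation was called in the same direction in both tissues, where 1 was higher in fetal liver cells and 4 lower in bone marrow cells, and the medians were 0.22 and -0.15. Without the 2-fold threshold, 3 were higher and 5 lower in both. With quantile normalization, or without FL-LSKCD201+ replicate 2, 1 was lower in both.

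Of 16 genes of the BCL2 family, 3 were higher (18.8%) and 2 lower (12.5%) in both tissues, near the background. Bcl2 itself, the survival factor, had 0.130, 0.108 and 0.123 FPKM in mESC, 2.41, 2.71 and 3.25 in fetal liver cells and 5.46, 5.63 and 5.62 in bone marrow cells. The death effector Bax fell by 1.55 and 2.13, from 368 ± 15.8 FPKM (SD, n = 3), and the BH3-only Pmaip1 by 1.69 and 1.08. Without BM-LSKCD201+ replicate 1, only 1 of these 2 was called lower in both. Bad (1.10 and 1.06) and Bcl2a1b (1.51 and 2.04) were higher, and Bcl2a1b shares near-identical copies with which its reads may be split. The call of Bad was lost with quantile normalization (0.85) and with FPKM rescaled to a common sum (0.91).

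Of 12 housekeeping genes, 3 (25%) were called higher in both, beside 19.2% of all genes, and none lower. In bone marrow cells alone 4 were lower, and the median changes were 0.01 and -0.42. Hprt, a purine salvage enzyme often used as a reference gene, had 1.84, 1.15 and 1.66 FPKM in mESC, 238, 240 and 250 in fetal liver cells and 165, 168 and 161 in bone marrow cells. It changed by 6.59 ± 0.10 and 6.03 ± 0.10, and the day 5 cells had 5.87 ± 0.219 FPKM (SD, n = 3) when sorted as D5-LSKCD201+ and 6.19 ± 1.29 when sorted as D5-LSKCD201-. The part of strain, as labelled, in the Hprt values was not tested. Rplp0, a ribosomal protein, rose by 1.99 and 2.05. The Y-linked demethylase gene Kdm5d had at most 0.0375 FPKM in mESC, 1.87 to 2.95 in fetal liver cells and 4.27 to 4.69 in bone marrow cells, while the Y-linked Eif2s3y had 65.9 to 68.0 FPKM in mESC.

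Some genes were on in one cell type and near 0 in the other. At least 10 FPKM in each of the 6 in vivo libraries and below 0.5 FPKM in each of the 3 mESC libraries, 159 genes met the rule, 150 of them protein-coding. The reverse held for 129 genes, 114 of them protein-coding. Rac2 and Samsn1 had the highest floor of the first set, and Tdh, Lefty2 and Dppa4 of the second. The genes higher in both tissues took 4.42% to 4.57% of the summed FPKM of mESC libraries, 26.5% to 28.5% of FL-LSKCD201+ and 30.3% to 31.2% of BM-LSKCD201+. Those lower in both took 24.0% to 24.5%, 5.26% to 6.04% and 3.77% to 3.92%.

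Some genes that changed the same way sat side by side. Most such runs had 2 genes, with 379 runs of 2 higher and 258 of 2 lower genes. With 19.2% of all genes called higher and 14.7% lower, neighbours also share a call without any link. No expected number of runs was worked out, so the runs below only describe positions. The longest runs of neighbouring tested genes had 10 members. One run of higher genes on chromosome 6, chr6:48626763-48754210, reached from AI854703 to Gimap5 and held the Gimap cluster, with smaller changes from 1.08 to 8.03. Gimap1 and Gimap5 share one span in the table, so their split is uncertain. The end gene AI854703 lost its call with quantile normalization (0.82) and without FL-LSKCD201+ replicate 1 (0.97). A run on chromosome 17, chr17:34135181-34287827, held MHC class II and processing genes from H2-DMa to H2-Aa, with smaller changes from 1.39 to 5.59. The class II gene H2-Aa had 0.271, 0.112 and 0.283 FPKM in mESC, 7.19, 0.956 and 1.02 in fetal liver cells and 147, 152 and 155 in bone marrow cells, so its fetal liver value rests on replicate 1. Without that replicate the smaller change of H2-Aa was 0.71 on the log2 scale and below the threshold, and without mESC replicate 2 it was 1.32 and no longer passed. A run of 10 lower gene models on chromosome 12, from Gm8300 to Gm5039, and one of 8 on chromosome 7, from Zscan4a to Zscan4-ps3, consist of near-identical copies whose reads may be shared. Zscan4 genes mark a rare state of embryonic stem cells that resembles early embryos, and Zscan4a had 5.84, 3.94 and 9.45 FPKM in mESC and at most 0.00981 in vivo. Runs of 7 higher genes were the chemokine cluster from Ccl9 to Wfdc21 on chromosome 11 and the stretch from Prrc2a to Atp6v1g2 on chromosome 17, which includes Tnf and Ltb. With quantile normalization the ends Wfdc21 (0.95) and Prrc2a (0.72) were not called.

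Of the 22 genes called in opposite directions, 10 were higher in fetal liver cells and lower in bone marrow cells. Rbp4, a vitamin A carrier made by the liver, had a mean of 1.31 FPKM in mESC and 60.8 in fetal liver cells and was listed at 0 in bone marrow cells. Rhd, a red cell membrane protein, changed by 4.41 and -1.37. The other 12 were lower in fetal liver cells and higher in bone marrow cells. They included Bhlhe40, a circadian and stress factor (-1.80 and 2.27), Gas6, a TAM receptor ligand (-1.18 and 2.10), and Skil, a repressor of TGF-beta signaling (-2.16 and 1.32). These 5 names were chosen after their values were seen.

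RNA of other cell types differed between the groups. The 16 hepatocyte markers summed to 1194 to 1579 FPKM in FL-LSKCD201+, 530 to 608 in BM-LSKCD201+ and 659 to 697 in mESC, and in mESC nearly all of it was Apoe. Albumin (Alb) had 63.0 to 73.7 FPKM in fetal liver libraries and at most 0.0823 elsewhere. Of the 15 tested, 12 were called higher in fetal liver cells than in bone marrow cells and 2 lower. The 2 lower were Hnf4a and Krt18, and Trf was not called. Hnf4a had 10.3 to 11.3 FPKM there against 2.40 to 3.60 in fetal liver libraries, Krt18 156 to 166 against 31.7 to 43.7, and Trf 88.3 to 94.7 against 113 to 128. The 16 erythroid markers summed to 23835 to 47539 FPKM in fetal liver libraries, 2218 to 2251 in bone marrow libraries and 313 to 315 in mESC, with the lowest fetal liver sum in replicate 1. Car2, a carbonic anhydrase, carried most of the sum outside fetal liver, with 1814 to 1901 FPKM in bone marrow libraries and 233 to 246 in mESC, and had 903 to 976 in fetal liver libraries. The 12 granulocyte markers summed to 2572 to 3434 FPKM in fetal liver libraries, 569 to 778 in bone marrow libraries and at most 3.29 in mESC. In bone marrow libraries Prtn3 made up 251 to 357 FPKM of the sum. Ngp had 86.8 to 120 FPKM there, S100a8 71.0 to 89.9, S100a9 67.1 to 88.7, Mpo 49.3 to 54.7 and Camp 24.4 to 58.5. Elane, Ctsg and Ms4a3 had at most 0.714, 0.401 and 1.37 there. Of the 11 granulocyte markers tested, 7 were higher in both tissues. Prtn3 and Lyz2, named above, belong to the granulocyte and macrophage lists. Megakaryocyte markers (12 genes) summed to 221 to 278 and 346 to 359 FPKM, against at most 1.64 in mESC. The 14 macrophage markers summed to 777 to 811 and 471 to 506 FPKM, against 11.9 to 13.04, and the 16 endothelial markers to 537 to 617 and 419 to 463, against 77.3 to 82.6. Lyz2 alone made up 539 to 613 FPKM of the macrophage sum in fetal liver libraries and 360 to 387 in bone marrow libraries. In bone marrow libraries Cd68 had 25.9 to 30.6 FPKM, C1qb 25.6 to 30.8, C1qc 24.1 to 25.3 and C1qa 14.3 to 17.0. Csf1r and Adgre1 had at most 1.02 and 0.952 there. C1qb had 31.8 to 70.0 FPKM in fetal liver libraries. Egfl7 made up 283 to 289 FPKM of the endothelial sum in fetal liver libraries and 178 to 215 in bone marrow libraries. In bone marrow libraries Eng had 78.8 to 80.8 FPKM, Esam 40.5 to 44.6, Tie1 30.7 to 36.3, Emcn 30.2 to 32.8 and Pecam1 26.2 to 37.6. Cdh5 and Flt1 had at most 0.0645 and 0.0983 FPKM there. Of the 14 endothelial markers tested, 7 were higher in both tissues and 2 were called lower in bone marrow cells. The in vivo cells were sorted as lacking lineage markers. The part of other cell types in the genes called higher, or in the differences between both tissues, was not tested.

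Other marker lists were low or mixed. The 9 B cell markers summed to 66.9 to 73.0 FPKM in fetal liver and 65.2 to 73.2 in bone marrow libraries, mostly through Cd79b, and Pax5 was at most 0.458. The 12 T and NK cell markers summed to 39.8 to 62.1 and 118 to 130 FPKM, mostly through Nkg7 and Lck, while Cd3e was listed at 0 in every in vivo library. Replicate 1 had the highest fetal liver sum, with Gzma at 8.50, Klrd1 at 1.87 and Ncr1 at 0.794 FPKM. All of these were listed at 0 in fetal liver replicates 2 and 3. The 10 mast cell and basophil markers summed to 53.7 to 85.2 FPKM in fetal liver libraries and 4.49 to 5.95 in bone marrow libraries. Replicate 1 was again the highest fetal liver library, with Cma1 at 6.69 and Tpsb2 at 5.05 FPKM, against at most 0.226 in replicates 2 and 3. The 18 fibroblast and feeder markers summed to 57.1 to 61.2 FPKM in mESC, 22.9 to 25.3 and 23.7 to 28.2 in vivo. In mESC the fibronectin gene Fn1 made up the largest part with 28.9 to 32.1 FPKM, followed by Mmp2 with 7.48 to 9.11 and Acta2 with 3.60 to 9.65, while Col1a1 had 3.68 to 4.01 and decorin (Dcn) 0.479 to 0.766. Some members were higher in vivo. Postn had 10.03 to 11.02 FPKM in fetal liver and 2.13 to 3.09 in bone marrow libraries against 0.307 to 0.455 in mESC, and in bone marrow libraries Mmp2 had 15.6 to 18.8 and Pdgfrb 2.79 to 4.18. Of the 10 tested, 4 were lower in both tissues, 1 higher and 1 opposite. The 15 markers of primed epiblast and mesoderm summed to 19.0 to 22.7 FPKM in mESC and at most 8.18 in vivo.

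The genes called against mESC were then read in libraries that share no sample with them. By the study's methods, embryonic stem cells were first differentiated as embryoid bodies in a 3D peptide system. Blood-like colonies picked from it were then reseeded on OP9 stroma with the cytokines SCF, IL-3 and Flt3 ligand. D5-LSKCD201+ and D5-LSKCD201- cells were sorted on day 5 of that coculture, 3 libraries each. By limma, 1475 genes were higher in D5-LSKCD201+ (10.8% of 13691 tested) and 1904 lower (13.9%). Of the 2731 genes higher in both in vivo groups, 2304 passed the filter on low values there, and of these 615 (26.7%) were higher in D5-LSKCD201+ and 106 (4.6%) lower, with a median difference of 0.47 against -0.12 for all genes. Of the 2085 genes lower in both, 1985 passed, and of these 88 (4.43%) were higher and 895 (45.1%) lower, with a median of -0.89. Of 8340 genes not called the same way in vivo, 6.8% were higher and 7.66% lower. The share of summed FPKM in genes higher in vivo was 14.0% to 14.1% in D5-LSKCD201+ and 7.61% to 7.71% in D5-LSKCD201-. As the genes were chosen by their difference between mESC and the in vivo groups, nothing is read from where the day 5 shares lie between those. That of genes lower in vivo was 13.3% to 13.4% and 19.3% to 19.5%.

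**Figure D5:**
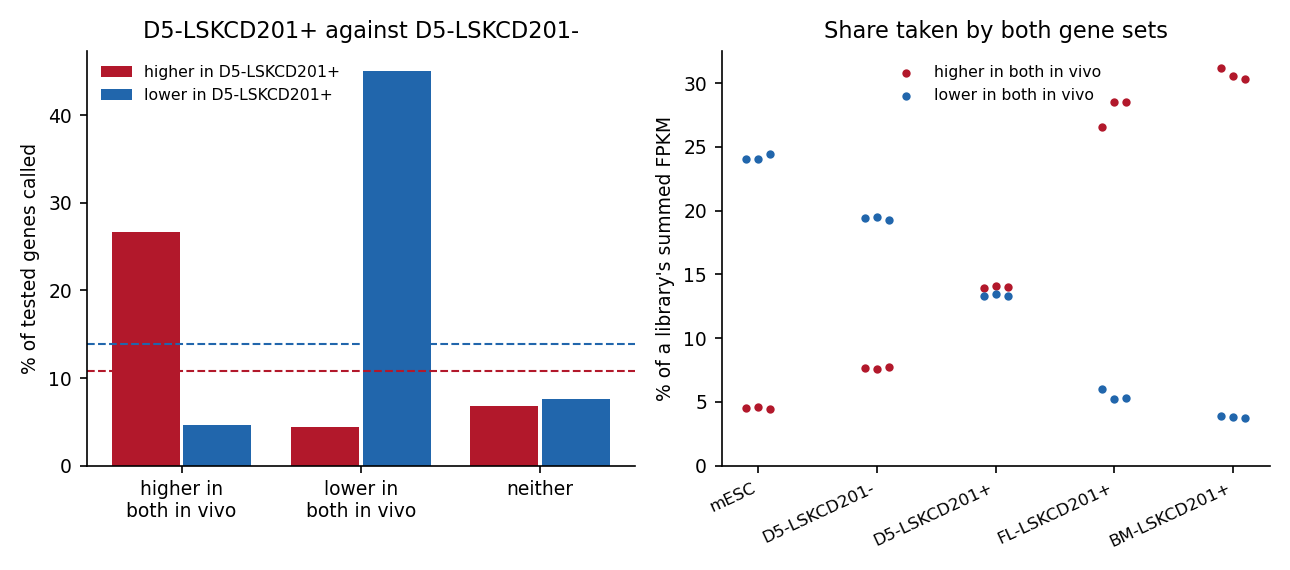
Left, share of genes called higher (red) or lower (blue) in D5-LSKCD201+ against D5-LSKCD201-, for genes higher in both in vivo groups, lower in both or neither, with dashed lines at 10.8% and 13.9% for all genes. Right, share of summed FPKM taken by the genes higher or lower in both in vivo groups in each of 15 libraries, 1 point each.

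By list, the counts between the day 5 groups are given without a test between lists. Of the 33 pluripotency factors lower in vivo, 31 were also lower in the CD201+ day 5 cells, with a median of -4.48, as were 13 of 14 germline genes and all 6 Polycomb subunits of that class. Of the 38 blood transcription factors higher in vivo, 34 passed the filter, of which the D5-LSKCD201+ cells had 18 higher and 3 lower. Lyl1 was higher by 3.34, Spi1 by 1.02 and Lmo2 by 1.16, while Nfe2 had a difference of -0.18 (limma adjusted p = 0.24). Of 35 leukocyte signaling genes 33 passed, 13 higher and 1 lower. Gimap6 and Gimap1 were higher by 4.33 and 4.34, and Rac2 (-0.26, limma adjusted p = 0.12) stood at 2.22 and 2.84 FPKM in the 2 groups, against at least 155 FPKM in vivo. Lyz2, Prtn3 and Ptprcap had group means below 2 FPKM in both day 5 groups. Krt18 was lower in D5-LSKCD201+ by 5.53, opposite to its rise in vivo. Of the 18 mitosis genes lower in vivo, 3 were lower in D5-LSKCD201+ and none higher. The share lower there was 13.9% of all genes and 45.1% of the genes lower in both in vivo groups.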

How the data were processed

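RNA-seq libraries from sorted cells were used, 3 each of mESC, FL-LSKCD201+, BM-LSKCD201+, D5-LSKCD201+ and D5-LSKCD201-. The deposited table held FPKM per gene, made by the authors from total RNA and poly(A) mRNA libraries. The submitters' processing notes name HISAT2 2.0.5, StringTie 1.3.3 and Cuffdiff 1.3.0. FPKM keeps no read counts, so no count test was run. Positions are those of the table (GRCm38, by match of 27828 of 27968 gene identifiers to GENCODE M21) and a span can cover neighbouring genes. Values were taken as log2(FPKM + 1), genes were kept at a 9-library mean of 0.5 FPKM or more, and limma 3.58.1 (R 4.3.3) fitted a mean per group with a variance trend, in 1 fit of the 9 libraries and another of the 6 day 5 libraries, with Benjamini-Hochberg adjustment over all genes tested. The procedure was tested on simulated data. Members, lists and tests were chosen with earlier results of these data known. Genes were named by rule: the 15 largest smaller-of-both changes per direction, 4 per list and direction, the sorting genes and the ends of the longest runs. Others were chosen after their values were seen. Replicate numbers were checked for pairing by the correlation of deviations from group means, which was -0.09 to 0.02 between mESC and either in vivo group, so that they do not pair those, and 0.16 to 0.24 between FL-LSKCD201+ and BM-LSKCD201+, where the pairing comes from the data alone. Alternatives covered the pseudocount, filter, scaling, variance model, samples fitted, thresholds, a replicate block and each library left out. A few genes that these rules name are not reported here.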

Additional observations from a re-analysis of the deposited data

Results flagged for a closer look

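Among the genes named by rule, 9 differed between FL-LSKCD201+ and BM-LSKCD201+ in the size of their change against mESC. They differed by at least 2 on the log2 scale at an adjusted p below 0.05, by the limma contrast of both groups. Genes chosen after their values were seen are not counted here. Higher in fetal liver cells were Ccne1 by 3.98, Ccnb1 by 3.29, Rrm2 by 3.01 and Kif2c by 2.71, all genes of cell division. Higher in bone marrow cells were the class II gene H2-Aa (-5.58 as fetal liver minus bone marrow), its chaperone subunit gene H2-DMa (-3.08), the class I gene H2-T23 (-2.38), the sorting gene Ly6a (-2.33) and the keratin gene Krt18 (-2.02). With the replicate number as a block, all 9 kept an adjusted p of at most 1.9e-05. Strain is shared by both tissues, and age and tissue cannot be told apart. The part of erythroid, hepatocyte and granulocyte RNA, higher in fetal liver libraries, was not tested.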

How the results depend on the processing

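The counts of calls kept within 1.5 times of their value in 222 of 241 alternatives, those of single lists in 752 of 792 while 40 moved further, and named genes kept their direction in all 2660 alternatives run, 44 of which lost the call. With the adjusted p alone, without the 2-fold threshold, 6133 genes were higher and 4787 lower in fetal liver cells, 6699 and 4970 in bone marrow cells and 5296 and 4054 in both tissues, with 182 list members lower in both. At least 4-fold, the counts were 1344 and 878, 1938 and 1232, and 1056 and 791, with 63 list members lower in both. Between the day 5 groups, with the adjusted p alone, 1306 of the genes higher in vivo were higher and 345 lower, and 205 of the genes lower in vivo were higher and 1489 lower. A pseudocount of 0.1 raised the genes higher in vivo and lower in D5-LSKCD201+ from 106 to 179. The cause of this last shift was not tested.

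Quantile normalization moved the split from 2731 higher and 2085 lower genes to 2154 and 2502, of which 2152 and 2065 were shared, and the median of all genes from 0.15 to -0.03 in fetal liver cells and from 0.24 to -0.04 in bone marrow cells. With a replicate block, 2732 genes were higher and 2085 lower in both, and 2568 differed between FL-LSKCD201+ and BM-LSKCD201+ in place of 2556. Leaving out each library in turn gave 2698 to 2756 higher and 1977 to 2121 lower genes. Without replicate 1 of both in vivo groups, a choice made after seeing the data, there were 2756 and 2143, of which 2580 and 1980 were shared. Averaging the close pairs of replicates, also chosen then, gave 2741 and 2136. Read depth is unknown, so the error of low FPKM rests on the spread between libraries alone. That spread was pooled over the 3 groups of 3 libraries and moderated by the variance trend across genes.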

Other observations

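The 12 genes called lower in fetal liver cells and higher in bone marrow cells, and the 10 of the reverse kind, make up 0.155% of all genes tested.

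Chromosomes differed in their share of calls. On chromosome 8, 91 of 773 genes tested (11.8%) were higher in both tissues and 177 (22.9%) lower, beside 19.2% and 14.7% of all genes, and the median change of its genes was -0.28 in FL-LSKCD201+ and -0.24 in BM-LSKCD201+. Every other autosome had a median between -0.03 and 0.35 in fetal liver cells and between 0.04 and 0.61 in bone marrow cells. On chromosome 6, 187 of 724 genes (25.8%) were higher and 85 (11.7%) lower, with medians of 0.35 and 0.61.

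Gene types differed as well. Of 496 processed pseudogenes tested, 6 were higher in both tissues and 102 (20.6%) lower, and of 242 antisense genes 65 (26.9%) were higher and 13 (5.37%) lower. Reads of pseudogenes may be shared with their parent genes, and whether the counting used strand is not given in the sources used here.

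The 129 genes on in mESC were chosen for being below 0.5 FPKM in every in vivo library, so a low sum there is set by the choice, and the same holds for the 159 genes on in vivo. The summed FPKM of the 129 was 0.264% to 0.351% of the mESC mean in FL-LSKCD201+. In BM-LSKCD201+ it was 0.112% in replicate 1 and 0.213% and 0.229% in the other 2. Replicate 1 listed 95 of the 129 genes at 0, against 30 and 26. Over all genes of the table the order was the reverse, with 9695 genes at 0 in replicate 1 against 10153 and 10167. In mESC, the 159 genes on in vivo summed to 0.313% to 0.340% of the in vivo mean.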
